A study of Mus musculus with 9 samples.

Results

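The libraries described here are 3 mock RNA-seq libraries, of 9 samples in the series, that profile mouse splenic B cells activated in culture with LPS and IL-4. They were taken by their titles, mock 1, mock 2 and mock 3, and every gene row of their count files was used. The cells were follicular B cells, the main recirculating B cell population of the spleen, positively selected with an antibody to CD23 from 3 C57Bl/6 mice whose Yy1 gene carries loxP sites on both alleles (yy1 fl/fl). Mock cells went through a mock treatment in place of the cell-permeable Cre recombinase TAT-CRE, so their Yy1 gene was floxed but, by the series text, not deleted, and they were then grown in RPMI medium with LPS and IL-4. The series text gives 72 hours and 10% serum for this culture, whereas the sample text gives 48 hours and 20% serum. The protocol attached to each sample, mock ones included, names TAT-CRE; here the groups follow the titles and the series text. The labels give no age or sex of the mice and tie no library to a mouse, so the spread given below is that between libraries and may be technical in part.

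LPS, a cell wall component of Gram-negative bacteria, is sensed by Toll-like receptors and drives B cells into division. IL-4, a T cell cytokine, acts through a receptor of the IL-4Rα chain and the common gamma chain and through the factor STAT6. Together they make mouse B cells switch from IgM towards IgG1 and IgE, and some of the cells move towards antibody secretion. CD23, the low-affinity IgE receptor encoded by Fcer2a, is a gene that IL-4 is known to raise in B cells, and here it is also the molecule on which the cells were selected.

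The libraries held 26745555, 28230727 and 24842380 counts on genes. Levels are given as CPM, the counts of a gene per 1000000 counts of its library, with the SD over the 3 libraries. A gene was called detected at 1 CPM or more in each library, low where it had a count but missed this level, and listed at 0 where all libraries had none. A count of 0 allows up to 3 counts, which is 0.112, 0.106 and 0.121 CPM in mock 1, 2 and 3 (counting error only). Exon lengths were not used here, so an order of CPM is an order of reads and not of RNA molecules.

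Several sequences place the most telling genes. The first set is the 160 bases before the RefSeq start (GRCm38.p6) of Ncl, the gene with the highest mean CPM, of Fcer2a and Il4ra, the CD23 and IL-4 receptor genes, and of Irf4, a factor of activated B cells and plasma cells, each written in the direction of its gene. Capitals mark the TATA-type motif TATAAA, the GC box GGGCGG and the octamer ATGCAAAT, searched on both strands, and none of the marked stretches overlap.
Ncl: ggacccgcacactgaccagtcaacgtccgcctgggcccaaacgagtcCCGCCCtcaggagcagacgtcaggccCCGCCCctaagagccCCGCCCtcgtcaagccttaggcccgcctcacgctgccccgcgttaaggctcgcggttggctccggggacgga
Fcer2a: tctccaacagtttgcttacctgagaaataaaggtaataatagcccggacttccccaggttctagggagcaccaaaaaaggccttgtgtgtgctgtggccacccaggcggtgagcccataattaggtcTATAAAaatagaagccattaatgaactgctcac
Il4ra: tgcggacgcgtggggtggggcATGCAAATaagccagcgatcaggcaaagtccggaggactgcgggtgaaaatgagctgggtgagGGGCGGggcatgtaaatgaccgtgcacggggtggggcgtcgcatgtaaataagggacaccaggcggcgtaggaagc
Irf4: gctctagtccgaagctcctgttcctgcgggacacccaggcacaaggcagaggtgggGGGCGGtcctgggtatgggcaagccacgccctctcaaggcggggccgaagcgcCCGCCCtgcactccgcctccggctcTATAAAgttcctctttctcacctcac

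These windows lie at chr1:86359456-86359615 (minus strand), chr8:3694175-3694334 (minus strand), chr7:125552111-125552270 (plus strand) and chr13:30749073-30749232 (plus strand). TATAAA begins 33 bases before the start of Fcer2a and 26 bases before that of Irf4. The octamer, a motif that the B cell factor Oct2 and its coactivator OBF1 are known to use, begins 139 bases before the start of Il4ra, and the printed Ncl window holds 3 GC boxes on its opposite strand. Of the 19988 genes with a RefSeq promoter, 12.1% hold TATAAA, 40.4% hold GGGCGG and 1.58% hold ATGCAAAT in the 250 bases before the start. These matches are descriptions of letters. Only 70.3% of detected genes had a promoter in the table, so no promoter property was summed over gene sets.

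The second set is the 2 mature miRNAs made from the transcript of Mir155hg, a host gene known to be switched on in activated B cells, with the seed (bases 2 to 8) in capitals. The hairpin lies within the RefSeq row of Mir155hg, on chromosome 16 at 84713023 to 84715245. Mir155hg gave 620, 553 and 721 CPM in mock 1, 2 and 3, lowest in mock 2 and highest in mock 3. The libraries measured the host transcript and not the mature miRNAs.
mmu-miR-155-5p: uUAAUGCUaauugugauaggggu
mmu-miR-155-3p: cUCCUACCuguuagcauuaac

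The labelled cell type was checked against its markers, with coordinates from RefSeq on GRCm38.p6. All 10 markers of activated and switching B cells, a list chosen with earlier results of these data known, were detected. Ighm (ENSMUSG00000076617, chromosome 12, 113418826 to 113422730), the constant region of IgM, gave 7227, 5724 and 6590 CPM in mock 1, 2 and 3. Ighg1 (ENSMUSG00000076614, chromosome 12, 113326541 to 113330523), that of IgG1, gave 2708, 2418 and 2274 CPM. Ighe (ENSMUSG00000087642, chromosome 12, 113269263 to 113273248), that of IgE, gave 501, 420 and 506 CPM. The 3 ranges do not touch, so each library held more Ighm than Ighg1 counts and more Ighg1 than Ighe counts. Fcer2a (ENSMUSG00000005540, chromosome 8, 3680280 to 3694174) stood at 1119, 1111 and 1099 CPM, nearly the same in the 3 libraries (1110 ± 10.2 CPM). Cd79a (ENSMUSG00000003379, chromosome 7, 24897497 to 24901858), the signalling chain of the B cell receptor, gave 235, 194 and 175 CPM and was highest in mock 1. Yy1, the floxed gene, had 2655, 3018 and 2542 counts, or 103 ± 3.84 CPM, so its transcript was present in each library, and its relative Yy2 was listed at 0.

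Reads were spread over many genes. Of 48795 gene rows, 12066 (24.7%) were detected, 13056 were low and 23673 (48.5%) were listed at 0, and of 21187 protein-coding rows 10096 (47.7%) were detected. Just 23 genes held 10% of the counts, 804 genes held 50% and 9763 genes held 99%. The 87 genes of at least 1000 CPM took 18.3% of the counts, while the 2242 genes between 100 and 1000 CPM took 55.6%. A detected gene had a median of 26.1 CPM. Near the limit of detection, Nes passed with a lowest value of 1.01 CPM and Wdr31 missed it with a lowest value of 0.992 CPM. The mock libraries were alike in the shape of this distribution: the top 10 genes took 7.12, 6.73 and 7.04% of the counts in mock 1, 2 and 3.

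**Figure D1:**
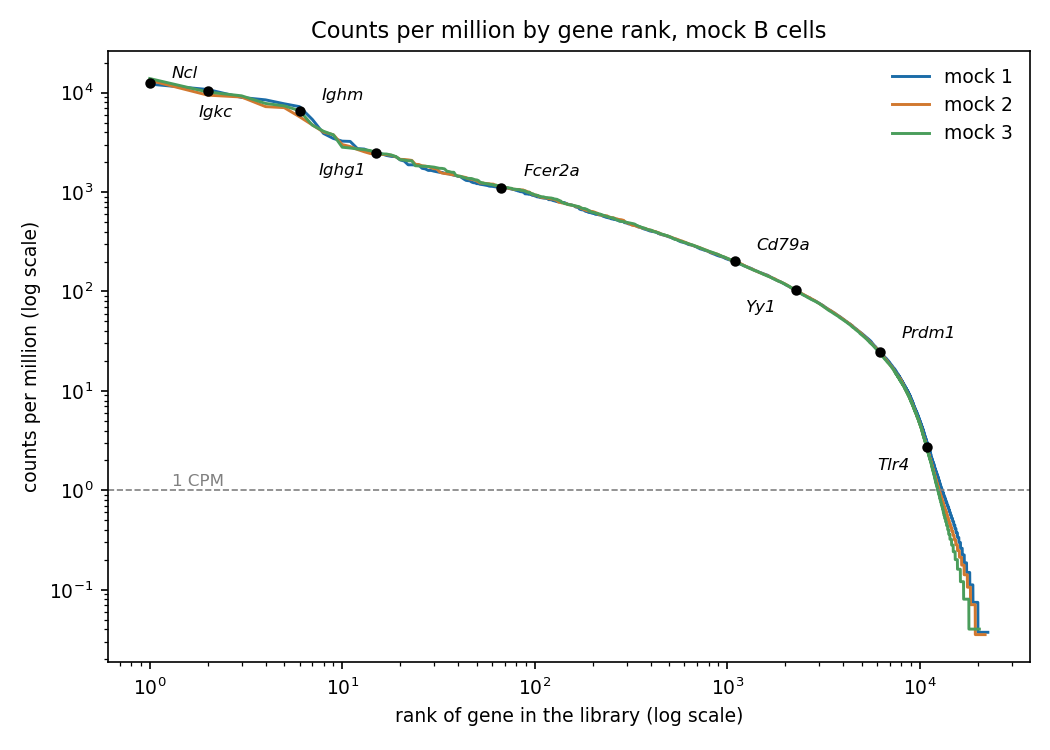
CPM of each gene (vertical axis, log scale) against its rank in the library (horizontal axis, log scale), 1 line for each mock library, with black points for the mean CPM and rank of 9 genes and a dashed line at 1 CPM. The 3 lines nearly coincide above 1 CPM and part below it, where mock 1, with 22598 genes that have a count, runs above mock 3, with 20420.

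The order at the top was led by Ncl, which encodes nucleolin, a protein of ribosomal RNA synthesis in the nucleolus. Ncl gave 10756, 13283 and 13850 CPM in mock 1, 2 and 3. Igkc, the constant region of the kappa light chain, gave 12180, 9031 and 10139 CPM. The ranges overlap, and the order differs between libraries: Igkc came first in mock 1 and Ncl in the other two. Hsp90ab1, a cytosolic chaperone, came next by mean with 8945, 9434 and 9287 CPM, and was above Igkc in mock 2. B2m, the light chain of MHC class I, followed with 8456, 7229 and 7779 CPM. Eef1a1, the elongation factor that brings aminoacyl-tRNA to the ribosome, gave 7722, 7060 and 7357 CPM, below B2m in each library although the ranges of both overlap. The order of Ighm, Rpl4, Hsp90b1, Serbp1 and Eef2 that came next held without overlap between neighbours.

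Further genes among the first 20 act in protein folding, antigen presentation, RNA binding and metabolism. Hsp90b1 and Calr, which fold proteins in the endoplasmic reticulum, gave 3993 ± 103 and 2376 ± 93.6 CPM. Cd74, the invariant chain of MHC class II, gave 3251, 2868 and 2614 CPM, highest in mock 1 and lowest in mock 3. Pabpc1, which binds poly(A) tails, stood at 2729 ± 45.9 CPM and Pkm, a glycolytic enzyme, at 2246 ± 160 CPM. Mki67, the proliferation antigen Ki-67 of dividing cells, gave 2050, 2081 and 2098 CPM, the value with the smallest spread among the first 20. From Hnrnpa2b1 at rank 13 to Mki67 at rank 20 all neighbours overlapped in range, so this stretch has no fixed order.

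By gene class, other protein-coding genes took 74.7 ± 0.155% of counts and every named class a far smaller part. Translation initiation and elongation factors took 2.75 ± 0.0142%, cytosolic ribosomal protein genes 2.19 ± 0.0716% and immunoglobulin constant genes 2.11 ± 0.261%. The last class varied most of these, with 2.39, 1.87 and 2.07% in mock 1, 2 and 3. hnRNP and SR protein genes, which bind and splice RNA, took 1.89 ± 0.0967%. Cytosolic and mitochondrial chaperones took 1.76 ± 0.0851% and the endoplasmic reticulum folding genes 1.65 ± 0.0229%. All 26 folding genes of the endoplasmic reticulum were detected, with a median of 276 CPM. MHC genes of the H2 region took 0.744 ± 0.0438%, glycolysis genes 0.702 ± 0.0486% and proteasome genes 0.663 ± 0.0247%. Genes with near-identical copies may share reads with the pseudogene rows described below. The order of classes that hold such genes, ribosomal protein genes among them, is therefore uncertain.

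**Figure D2:**
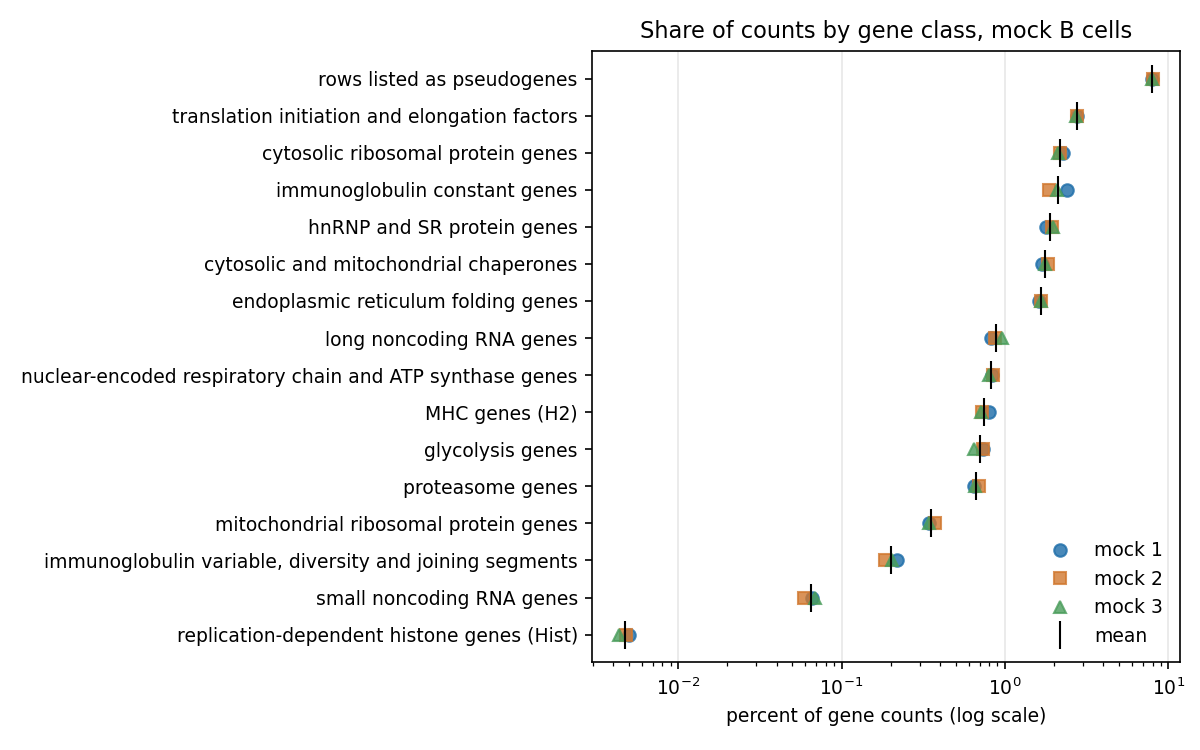
Percent of gene counts (horizontal axis, log scale) in each gene class (vertical axis), with 1 symbol for each mock library and a bar at the mean; the other protein-coding genes, the genes with no class and the mitochondrially encoded genes, which are at 0, are not drawn. Rows listed as pseudogenes lead with 7.97% and the replication-dependent histone genes come last with 0.00471%.

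Rows listed as pseudogenes took 7.97 ± 0.0835% of counts, more than any named class of genes, with 1122 of 6886 such rows detected. Rps6-ps4 gave 2481, 2405 and 2412 CPM, while Rps6, its parent gene for a protein of the small ribosomal subunit, gave 38.9, 36.0 and 47.5 CPM. Tpt1-ps3 gave 1104 CPM on average against 76.0 CPM for Tpt1. Of 382 named pairs of a pseudogene and its gene with a count, the pseudogene was above the gene in every library in 70, and 32 of these were among the 181 ribosomal protein pairs. Of cytosolic ribosomal protein genes, 82 of 86 were detected, with a median of 45.8 CPM, from Rpl4 at 4937 CPM to 15 genes under 10 CPM.

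Low CPM were also found for other genes that every cell uses. Gapdh, a glycolytic enzyme, gave 36.3, 38.9 and 33.9 CPM, Ppia, cyclophilin A, gave 18.0, 20.8 and 17.7 CPM, and Fau, a ribosomal protein gene, gave 5.0, 5.7 and 5.3 CPM. The sources used here do not say how reads with several positions were counted, so the level of a gene with near-identical copies is uncertain, and its low CPM cannot be read as little RNA. All 37 mitochondrially encoded rows were listed at 0 in every library. Since all cells with mitochondria transcribe these genes, a listing at 0 is given here and below as what the files hold and not as absence of the RNA. The replication-dependent histone genes took 0.00471 ± 0.000325% of counts beside the 2077 ± 24.2 CPM of Mki67. Their messages end without a poly(A) tail, and the sources used here do not give the RNA selection of these libraries.

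Immunoglobulin genes were counted in detail, because switching is what LPS with IL-4 is used for. Ighm made up 66.1 ± 1.65% of the heavy chain constant counts, Ighg1 25.1 ± 1.94% and Ighe 4.84 ± 0.301%. Ighg3, the constant region of IgG3, gave 231 ± 31.8 CPM and Ighg2b, that of IgG2b, 55.5 ± 2.06 CPM. Ighd, that of IgD on resting B cells, gave 108, 85.6 and 82.6 CPM, highest in mock 1. Ighg2c gave 2.04 ± 0.504 CPM and Igha 1.98 ± 0.583 CPM, and these last ranges overlap. Constant region reads can come from germline transcripts made before switching as well as messages of switched cells, so these shares are not shares of cells.

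Kappa chains made up 92.7 ± 0.738% of the light chain constant counts, with 93.4, 91.9 and 92.8% in mock 1, 2 and 3. Of the lambda genes, Iglc3 gave 479 ± 34.5 CPM, Iglc2 266 ± 11.1 CPM and Iglc1 69.8 ± 9.0 CPM. Among variable segments, 65 of 185 heavy chain, 72 of 160 kappa and 3 of 3 lambda segments were detected. Of all gene rows 24.7% were detected, and of protein-coding rows 47.7%. The leading segment held a small part of the variable counts: Ighv2-9 5.26% of the heavy chain and Igkv5-43 10.8% of the kappa sum. Igkc and Ighm were both highest in mock 1 and lowest in mock 2. Near-identical segments may share reads, so single segments are uncertain.

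Receptors were examined next, to see which signals the cells carried transcripts to receive. Of 314 receptor genes with a row, 173 (55.1%) were detected and 32 were listed at 0, against 47.7% detected of all protein-coding rows. This 47.7% is the share to set beside each list count below. Members of all lists were chosen with earlier results of these data known, so a share may reflect that choice. Among receptor chains and coreceptors of the B cell receptor, 16 of 19 were detected. Ms4a1, encoding CD20, led with 910, 849 and 1070 CPM, highest in mock 3. Cd22, an inhibitory coreceptor that binds sialic acid, gave 743 ± 49.4 CPM. Cd79b, the partner of Cd79a, gave 358 ± 38.1 CPM. Cr2, a complement receptor of B cells, was at 13.5 ± 2.01 CPM.

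Genes of the classical LPS receptor complex had fewer counts than its relatives Cd180 and Ly86. These counts do not show which receptor sensed the LPS. Tlr4, the classical LPS receptor, gave only 2.28, 2.48 and 3.34 CPM in mock 1, 2 and 3, and Cd14, its coreceptor, was listed at 0. Ly96, which encodes the LPS-binding partner MD-2, gave 18.1, 17.0 and 20.4 CPM. In contrast Cd180 (RP105), a TLR4 relative of B cells, gave 155, 163 and 141 CPM, and its partner Ly86 (MD-1) 239, 231 and 211 CPM. Tlr7, a sensor of single-stranded RNA, had the highest CPM of the pattern receptor list with 267, 238 and 283 CPM, and Tlr9, the sensor of CpG DNA, gave 25.4, 27.9 and 23.8 CPM. For Ly96, Cd180, Ly86, Tlr7 and Tlr9 the lowest library held more counts per 1000000 than the highest of Tlr4. In the list, 20 of 40 members were detected, and Tlr5, Tlr8, Tlr11, Tlr13, Clec7a, Clec4n and Clec9a were the others listed at 0.

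For IL-4, Il4ra gave 594, 583 and 507 CPM, lowest in mock 3, and the common gamma chain Il2rg gave 130, 120 and 116 CPM. Il13ra1, the alternative partner of Il4ra, gave 5.53, 8.29 and 6.40 CPM, below Il2rg in each library and above the list median of 2.54 CPM. Il21r, the receptor of a T follicular helper cytokine, had the highest CPM of the cytokine receptor list at 751, 730 and 684 CPM. Il2ra, the alpha chain of the IL-2 receptor (CD25) that activated lymphocytes show, gave 230, 212 and 217 CPM. Of 68 members, 36 (52.9%) were detected, near the 47.7% of all protein-coding rows, and Il17rc, Il20ra and Il22ra1 were listed at 0. Flt3, best known from progenitors and dendritic cells, gave 109, 118 and 119 CPM.

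Among receptors of the TNF family, 15 of 28 (53.6%) were detected, near the 47.7% of all protein-coding rows. The receptors for the survival factor BAFF and its relative APRIL led. Tnfrsf13c, the BAFF receptor, gave 574, 545 and 612 CPM and Tnfrsf13b, TACI, 430.5, 425 and 414 CPM. Tnfrsf8, CD30 of activated lymphocytes, gave 120, 119 and 113 CPM, and Cd40, the receptor for T cell help, 45.7, 58.9 and 51.0 CPM. Tnfrsf17, BCMA of plasma cells, was low with at most 0.0805 CPM. Cd40 was highest in mock 2 and lowest in mock 1.

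Of the positioning receptors, 21 of 42 were detected. Cxcr5, which guides B cells into follicles, gave 286, 288 and 251 CPM, and Gpr183 (EBI2), an oxysterol receptor that moves them to the outer follicle, 155, 144 and 140 CPM. Ccr7, the receptor that leads to the T cell zone, gave 27.4, 16.0 and 19.7 CPM, and S1pr1, needed to leave lymphoid organs, 19.2, 11.1 and 13.8 CPM. Ccr7, S1pr1 and Cxcr4 (31.1, 21.8 and 26.9 CPM) shared the same order, highest in mock 1 and lowest in mock 2. Ccr8, Cxcr1, Cxcr2, Cxcr3, Fpr1 and Fpr2 were listed at 0.

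Costimulatory and adhesion molecules were detected in 36 of 47 cases (76.6%), beside 47.7% of all protein-coding rows. Cd44, the hyaluronan receptor that rises on activated cells, gave 587, 554 and 612 CPM, Cd83, a protein of activated B and dendritic cells, 403, 388 and 400 CPM, and Cd86, a ligand of CD28, 153, 124 and 128 CPM. Icos was the only member listed at 0. Besides Fcer2a, the Fc receptor list had Fcgr2b, the inhibitory IgG receptor, at 107, 96.7 and 102 CPM, whereas Fcer1a, Fcgr1 and Itgax were listed at 0. Nuclear receptors were the least detected receptor list, with 17 of 49 members, led by Nr2c2 at 71.3, 66.5 and 69.0 CPM and by Nr3c1, the glucocorticoid receptor, at 44.9, 40.2 and 48.8 CPM; 11 members were listed at 0.

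**Figure D3:**
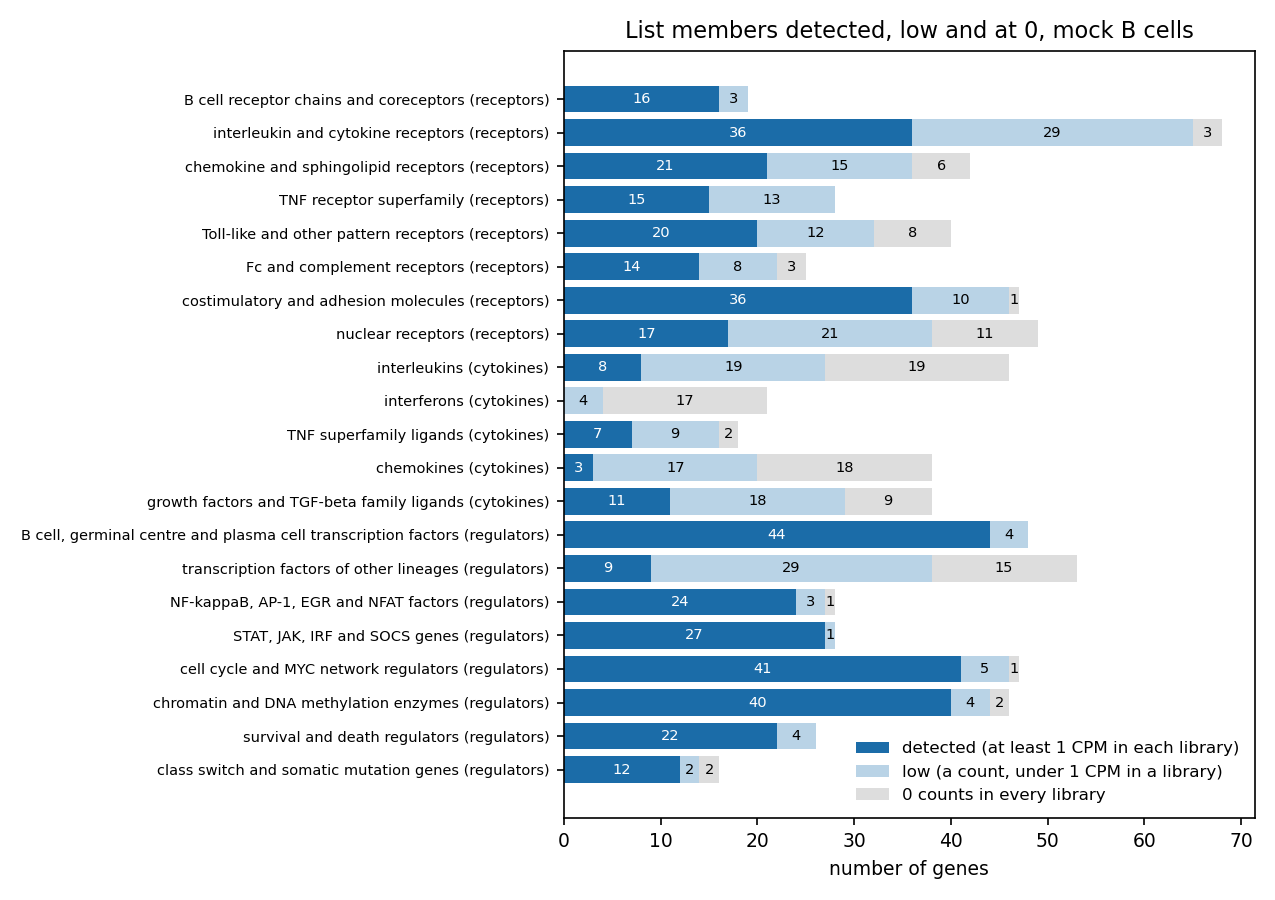
Number of genes (horizontal axis) detected, low and listed at 0 in each receptor, cytokine and regulator list (vertical axis), as stacked bars with the numbers written in. The list of B cell, germinal centre and plasma cell transcription factors has 44 of 48 detected. Interferons have 0 of 21 detected and chemokines 3 of 38, beside 47.7% of all protein-coding rows. Members were chosen with earlier results of these data known, so a share may reflect that choice.

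Cytokines stood in contrast to receptors: 29 of 161 (18.0%) were detected and 65 were listed at 0, beside 47.7% detected of all protein-coding rows. Of 46 interleukins 8 were detected. Il16, a chemoattractant for CD4+ cells, gave 111, 104 and 102 CPM, and Ebi3, a subunit of IL-27 and IL-35, 105, 91.0 and 89.1 CPM. Il6, an inflammatory cytokine that B cells can secrete, gave 31.7, 37.5 and 34.4 CPM, Il12a, which pairs with Ebi3 in IL-35, 8.0, 8.08 and 8.05 CPM, and Il10, an inhibitory cytokine, 7.03, 5.46 and 5.23 CPM. The cytokine used in the culture had almost no transcript of its own, since Il4 had at most 0.0354 CPM in a library. Il21, the ligand of the Il21r product, was listed at 0, and Il2 had at most 0.161 CPM.

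Among other families, 3 of 38 chemokines were detected: Ccl22, a ligand of CCR4, with 94.9, 121 and 104 CPM, Ccl25 with 16.2, 13.7 and 13.5 CPM and Ccl5 with 4.04, 3.47 and 4.59 CPM. Ccl22 was highest in mock 2. Its receptor gene Ccr4 gave 6.54, 2.55 and 4.19 CPM and was lowest there. Of 18 TNF family ligands 7 were detected, first the lymphotoxins Ltb (34.1, 34.9 and 31.3 CPM) and Lta (22.1, 30.1 and 27.2 CPM), which shape lymphoid tissue, and Tnf (11.6, 18.6 and 12.3 CPM). Tnf in mock 2 was more than 1.5 times its value in either other library. No interferon gene was detected among 21, with 17 listed at 0, and Ifng came closest with 1.01, 0.886 and 1.61 CPM. Of 38 growth factors 11 were detected, with Mif at 184, 181 and 150 CPM, Vegfa at 115, 107 and 108 CPM and Tgfb1 at 58.3, 62.4 and 52.7 CPM.

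**Figure D4:**
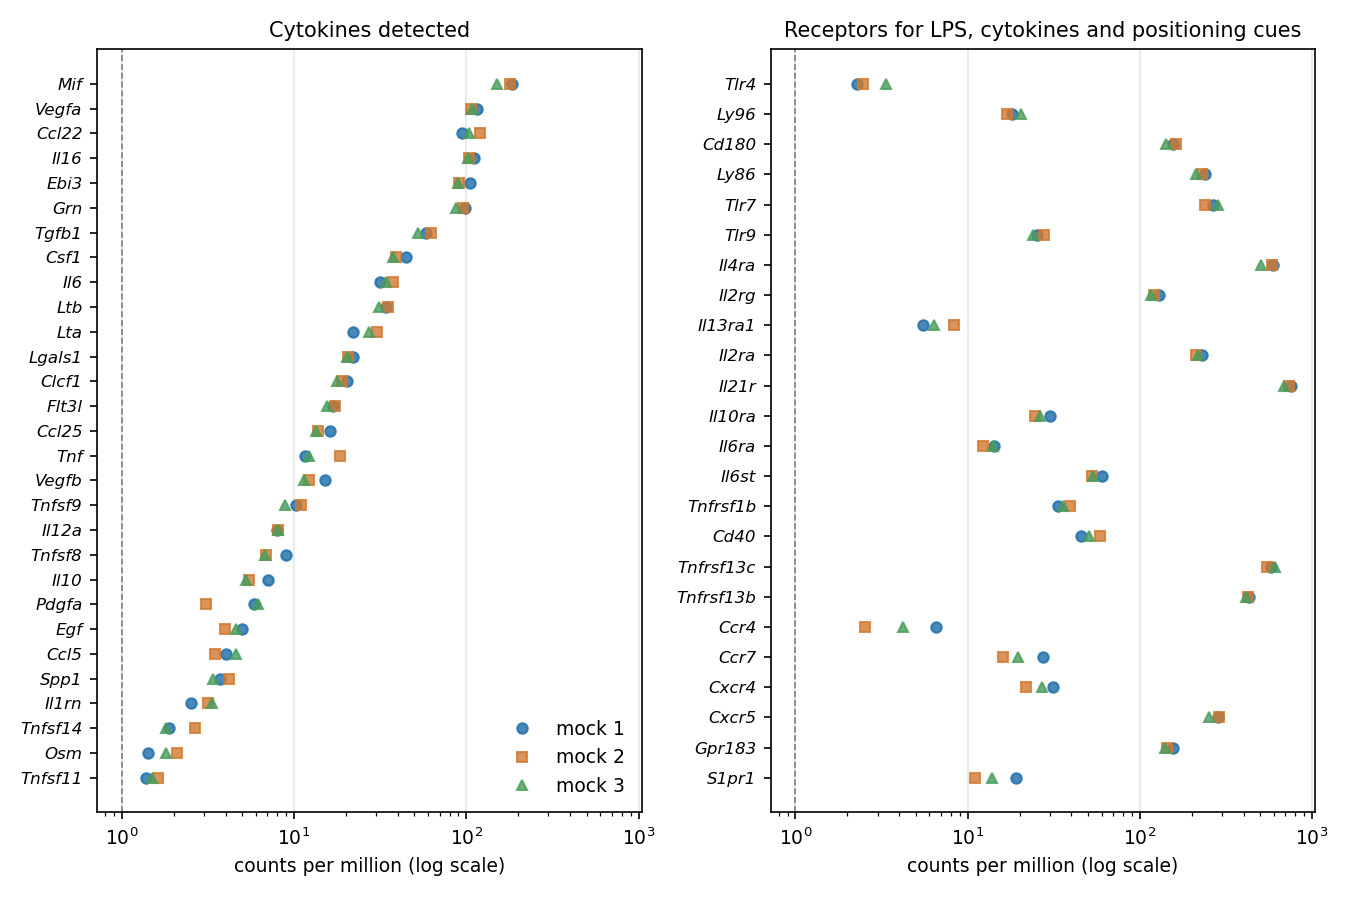
CPM (horizontal axis, log scale, dashed line at 1 CPM) of the 29 detected cytokine genes (left) and of 24 receptors (right), with 1 symbol for each mock library. Tlr4 and Ccr4 lie lowest among these receptors and Il21r and Il4ra are near the upper end, while the cytokine with the most counts, Mif, reaches 184 CPM in mock 1.

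Regulators were mostly present, with 217 of 290 (74.8%) detected and 21 listed at 0, beside 47.7% detected of all protein-coding rows. Their lists too were chosen with earlier results of these data known, so this share may reflect the choice of members. In the list of B cell, germinal centre and plasma cell transcription factors 44 of 48 were detected. Pou2af1, the octamer coactivator OBF1, gave 1302, 1213 and 1217 CPM, Mef2c, a factor of B cell proliferation, 1162, 1023 and 1260 CPM, and Pax5, the keeper of B cell identity, 1024, 1030 and 1146 CPM. Irf4, needed for switching and for plasma cells, gave 416, 439 and 419 CPM, Batf, which acts with it, 292, 304 and 273 CPM, and Xbp1, the factor of secretory cells, 233, 221 and 229 CPM. Prdm1, which encodes Blimp-1 and drives plasma cells, gave 25.2, 22.8 and 25.8 CPM, and Bcl6, the germinal centre repressor, 28.2, 17.6 and 26.5 CPM. The ranges of Prdm1 and Bcl6 overlap, and Bcl6 in mock 2 was the only value of the latter below 20 CPM.

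Of 16 class switch and somatic mutation genes 12 were detected. Msh6, a mismatch repair gene, gave 421, 425 and 416 CPM, nearly level over the libraries. Ung, the glycosylase that removes uracil from DNA, gave 37.4, 41.1 and 36.1 CPM. Rag1 and Rag2, the recombinase of precursor cells, were listed at 0. Dntt, which adds bases at the joints of rearranging genes in precursors, was low with at most 0.106 CPM.

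NF-kappaB, AP-1, EGR and NFAT factors were detected in 24 of 28 cases (85.7%), beside 47.7% of all protein-coding rows. Nfkb1, the p105/p50 subunit, gave 958, 1051 and 968 CPM and Nfkbia, the inhibitor IκBα, 625, 665 and 717 CPM. Egr2, a factor of the immediate response, gave 101, 90.5 and 85.7 CPM, but Fos gave 0.785, 0.319 and 0.725 CPM and Egr4 was listed at 0. Of STAT, JAK, IRF and SOCS genes 27 of 28 were detected, with Stat6, the mediator of IL-4, at 156, 144 and 141 CPM and Stat4, that of IL-12, at 234, 201 and 227 CPM. Socs2, a feedback inhibitor of cytokine signals, gave 304, 308 and 312 CPM.

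Cell cycle and MYC network genes were detected in 41 of 47 cases (87.2%), beside 47.7% of all protein-coding rows. Ccnd2, a D-type cyclin of B cell entry into the cycle, gave 697, 784 and 826 CPM, Ccna2, the cyclin of S and G2 phases, 473, 496 and 494 CPM, and Myc 275, 325 and 279 CPM. Ccnd2 was lowest in mock 1 and Myc highest in mock 2. Chromatin enzymes and related genes had 40 of 46 members detected. Dnmt1, the maintenance DNA methyltransferase, gave 530, 560 and 510 CPM, and Suz12 and Ezh2, subunits of the Polycomb complex PRC2, gave 440 ± 18.2 and 370 ± 6.6 CPM. Of survival and death regulators 22 of 26 were detected, with the antiapoptotic Mcl1 at 468, 406 and 426 CPM and Bcl2 at 82.3, 70.3 and 89.6 CPM.

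Transcription factors of other lineages had 9 of 53 members (17.0%) detected, beside 47.7% of all protein-coding rows. Lmo2, a cofactor known from blood stem cells and germinal centre B cells, stood far above the rest with 880.5, 852 and 783 CPM. Next came Zbtb7b with 30.0, 23.1 and 25.6 CPM and Lef1 with 21.8, 17.9 and 16.9 CPM, and 15 members, among them Gata2 and Cebpa, were listed at 0. Families known from other tissues had few detected rows, beside 24.7% of all gene rows. Their rows were taken by symbol and include pseudogene rows. Of 1330 olfactory receptor rows 2 were detected, and of 507 vomeronasal receptor rows 0. Of 120 cytochrome P450 rows 6 were detected, and Cyp51, an enzyme of cholesterol synthesis, led them with 802, 737 and 928 CPM.

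Markers of the other cells that a spleen preparation could hold were summed in each library. T cell markers reached 231, 243 and 196 CPM, nearly all from Thy1 (209, 228 and 179 CPM) and Lck (20.1, 13.5 and 15.7 CPM); the other 12 of 14 were low, with Cd3d, Cd3e, Cd3g and Trac at most 0.486 CPM. Macrophage and monocyte markers summed to 35.7, 29.2 and 26.5 CPM, with Cd68 and Hmox1 the only detected members and Lyz2, Cd14, C1qa, C1qb and C1qc listed at 0. Dendritic cell markers summed to 145, 154 and 154 CPM, with 5 of 10 detected. These were Flt3, which held most of the sum, Bst2 (18.0 CPM on average), Zbtb46 (7.94 CPM), Batf3 (6.75 CPM) and Ccr9 (2.92 CPM), while Itgax and Clec9a were listed at 0. NK cell, neutrophil, mast cell, erythroid and platelet markers had 0 detected members, with sums of at most 2.09, 1.27, 1.91, 1.20 and 0.673 CPM. For haemoglobin genes, which occur in near-identical copies, the caution on shared reads holds. The stromal and endothelial list had Pecam1 alone detected, at 45.7, 38.5 and 35.8 CPM.

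States of B cells other than the selected one were read in the same way. Plasma cell markers had 7 of 9 detected, among them Irf4, Xbp1 and Slamf7 (258, 231 and 259 CPM). Jchain, the joining chain of secreted IgM, gave 137, 90.0 and 128 CPM, but Sdc1, CD138 of plasma cells, gave 3.14, 2.37 and 2.70 CPM. Tnfrsf17 was low, with at most 0.0805 CPM, and Cxcr3 was listed at 0. Germinal centre markers had 4 of 9 detected: Fas (39.9 CPM on average), Bcl6 (24.1 CPM), Mybl1 (15.3 CPM) and Gpr55 (2.71 CPM). The other members, among them S1pr2, Rgs13 and Mef2b, were low. The marginal zone and B1 list had 7 of 9 detected, led by Zbtb32 with 204, 222 and 201 CPM. Next came Mzb1, which is also in the plasma cell list, with 167, 143 and 139 CPM. Cd5 and Itgam were low, with at most 0.86 and 0.85 CPM. In these bulk libraries a few cells with much of an RNA and many cells with little of it cannot be told apart.

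Long noncoding RNA genes took 0.882 ± 0.0684% of counts, with 303 detected of 3685 rows in this class. Xist, the RNA that silences an X chromosome in female cells, led with 1311, 2106 and 2359 CPM, and its antisense partner Tsix gave 0.748, 0.319 and 1.05 CPM. The Y-linked genes Kdm5d, Ddx3y, Uty and Eif2s3y were listed at 0 in each library, and none of the 334 rows of chromosome Y was detected. Malat1 followed with 701, 625 and 881 CPM, highest in mock 3. Gas5, a host of small nucleolar RNAs, gave 546, 589 and 620 CPM, and Mir17hg, the host of the miR-17 to miR-92 cluster, 83.3, 119 and 129 CPM, both lowest in mock 1. Small noncoding RNA genes took 0.0646 ± 0.00514%.

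The spread between the 3 libraries was modest. The common biological coefficient of variation, edgeR's estimate of the spread beyond counting error, was 0.103 over 13596 genes. The median coefficient of variation of a gene fell from 25.8% among the genes with the fewest counts, below 1 on the log2 CPM scale, to 5.77% at 9 and above, where counting error alone gives a median of 0.698%. Of 8572 genes with a mean of at least 10 CPM, the highest library was a median of 1.15 times the lowest, 184 genes (2.15%) exceeded 1.5 times and 17 exceeded 2 times. Pearson's r of log2(CPM + 1) across genes was 0.9951 to 0.9964 for the 3 pairs, where genes are not independent replicates. No pair agreed within sampling noise, with a chi-square per degree of freedom from 12.2 to 13.5, so no library looked like a copy of another.

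**Figure D5:**
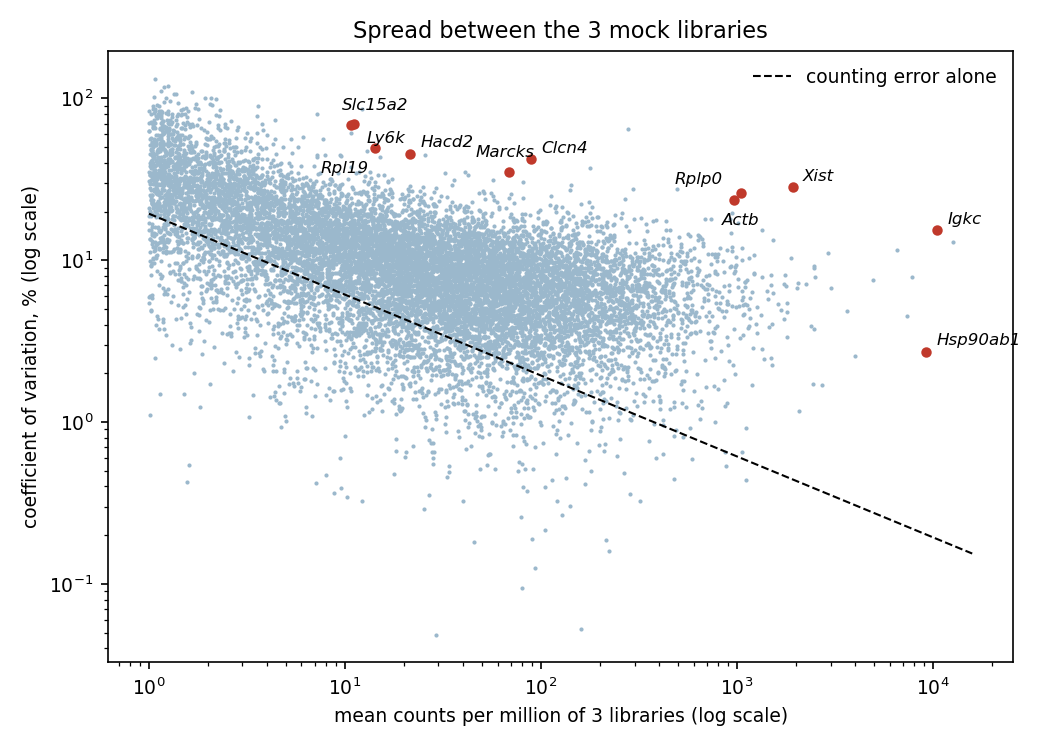
Coefficient of variation over the 3 mock libraries in percent (vertical axis, log scale) against mean CPM (horizontal axis, log scale), 1 point for each gene of at least 1 CPM, with named genes in red and a dashed line for counting error alone at the mean depth. Most genes of many counts lie above the line, and Slc15a2 and Ly6k stand among the highest at about 11 CPM.

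The most variable genes of at least 10 CPM with established symbols differed in the library that stood apart. Slc15a2, a peptide transporter, gave 6.80, 6.09 and 19.2 CPM, high in mock 3, and without that library its mean fell from 10.7 to 6.45 CPM. Ly6k gave 6.47, 20.0 and 6.92 CPM, high in mock 2, and without that library its mean fell from 11.1 to 6.70 CPM. Hacd2, an enzyme of fatty acid elongation, gave 28.8, 25.2 and 10.3 CPM and Clcn4, a chloride/proton exchanger, 72.0, 62.4 and 132 CPM, so mock 3 was the low library for the first and the high one for the second. Marcks, a substrate of protein kinase C, gave 74.2, 41.9 and 88.9 CPM, lowest in mock 2. Igkv1-88 (20.0, 9.10 and 9.70 CPM) and Igkv10-96 (26.4, 41.2 and 55.2 CPM), both kappa variable segments, also differed over 2 times between libraries, as did Eya1 and Zfp975.

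For 2 ribosomal protein genes the difference was mirrored in a copy. Rpl19 gave 10.1, 10.1 and 22.3 CPM, high in mock 3, while Rpl19-ps1 was lowest there, and the sum of both differed by 1.18 times at most between libraries. Rplp0 gave 732, 1234 and 1172 CPM, low in mock 1, and Gm8730 gave 488, 172 and 177 CPM, with sums that differed by 1.15 times at most. Without mock 1 the mean of Gm8730 fell from 279 to 174 CPM. Both pairs were chosen after their values were seen. Among abundant genes, Xist gave 1311, 2106 and 2359 CPM, in mock 1 at least 1.5 times below both other libraries. Actb, beta actin, gave 1115, 1080 and 706 CPM, lowest in mock 3. Hsp90ab1 differed by only 1.05 times between its highest and lowest library.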

How the data were processed

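RNA-seq of 3 mock libraries was used; the other 6 samples were not used here. Each deposited file gives raw counts, 1 row a gene. The submitters' processing notes name Trimmomatic, TopHat2, SAMtools, HTSeq and build mm10. The sources used here give no versions, annotation, strand setting or rule for reads that map to several places. Per the labels' protocols, a stranded RNA kit was used.

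Symbols were found for 48349 of 48795 Ensembl IDs. Biotypes and coordinates come from RefSeq (GRCm38.p6) by symbol for 35805 IDs, which hold 99.5% of counts. Promoter and miRNA sequences are RefSeq's. CPM used plain totals (Python 3.11.15, pandas 2.3.3). The spread was estimated with edgeR 4.0.16 (R 4.3.3, TMM, filterByExpr) in a fit with no groups, and this step was tested on simulated data. One group has no contrast, so no test was made. Genes were named by a rule from the 5 markers, the 20 genes with the highest mean CPM, the first 5 of each list, receptor and cytokine genes listed at 0, the 10 most variable genes of at least 10 CPM with established symbols, sex-linked genes and Yy1. Other genes were named after their values were seen, as were the pairs with copies. Naming by CPM per kb was not done, because exon lengths were not used here. Some genes of the lists are counted but not reported here by name. Members and lists were chosen with earlier results of these data known. Of the list genes, 2 had no row. Alternatives were other scalings, thresholds, denominators and leaving out each library.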

Additional observations from a re-analysis of the deposited data

How the results depend on the processing

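The number of detected genes stayed within 1.5 times of 12066 in all alternatives run but one: asking for at least 1 count in each library gave 18344. A threshold of 0.5 or 5 CPM gave 13105 or 9665, and leaving out a library gave 12138 to 12424. With the total taken without immunoglobulin genes, the share of pseudogene rows was 8.16%, of translation factors 2.81%, of endoplasmic reticulum folding genes 1.69% and of other protein-coding genes 76.5%. The biological coefficient of variation was 0.124 with no filter on low counts, 0.103 to 0.105 with other factors, and 0.1 to 0.108 without a library. Of 168 levels of at least 1 CPM named by the rule, 3 moved by over 1.5 times, each without 1 library: Slc15a2 to 6.45 CPM without mock 3, Ly6k to 6.70 CPM without mock 2 and Col3a1 from 1.15 to 0.730 CPM without mock 1. Gm8730, named after its values were seen, moved to 174 CPM without mock 1. Among all genes with a mean of at least 1 CPM, many more fell by over 1.5 times without a library. Most of these had means under 10 CPM and fell without mock 1, while some fell without mock 2 or mock 3. Mock 1 also had more genes with a count, 22598, than mock 2, with 21875, although mock 2 held more counts. Of 21 list counts, interferons had 1 member (Ifng) detected at 0.5 CPM or without mock 2, and factors of other lineages had 4 at 5 CPM. Alternatives per kb of exon length were not run. No paired analysis was possible because 1 group was described and no result comes from a test. Depth limits the listings at 0, which allow up to 0.121 CPM in mock 3.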

Other observations

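Genes at least 1.5 times beyond both other libraries were counted among the 8572 genes of at least 10 CPM. Mock 1 had 13 such genes above and 4 below, mock 2 had 6 above and 23 below, and mock 3 had 5 above and 6 below. With TMM-scaled CPM the counts were 10 and 4, 4 and 21, and 5 and 3 in the same order. The 23 genes low in mock 2 included Mx1 (15.8, 8.47 and 16.3 CPM), Oas3 (28.3, 18.0 and 29.9 CPM), Rtp4 (19.0, 11.2 and 21.9 CPM) and Ifi206 (17.4, 11.1 and 18.4 CPM), which are known to respond to interferon. They also included Tsc22d3 (14.0, 8.15 and 15.5 CPM), which responds to glucocorticoids. Related genes went other ways: Oasl1 was high in mock 1 (77.3, 50.2 and 43.5 CPM) and Oasl2 was low there (20.2, 31.8 and 35.9 CPM). These genes were picked after their values were seen, and no test was made.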
